A study of Mus musculus with 10 samples.

Results

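The genes described here are 9 transcription factors of the cortical interneuron lineage, Lhx6, Lhx8, Nkx2-1, Maf, Prox1, Sp8, Nr2f1, Nr2f2 and Npas1, which are 9 of the 31053 gene rows of the count matrices. They come from a list of lineage factors that was chosen with earlier results of these data known. Their rows were taken by symbol, a rule that itself uses no measured value. The genes were read in every embryo and in every class of cells. Cells kept had at least 1000 unique molecular identifiers (UMIs, 1 per captured mRNA molecule) and at most 10% mitochondrial UMIs. The libraries were droplet single-cell 3′ libraries of dissociated mouse cortex at E16.5, 1 library per embryo. There were 3 wild-type littermates (WT1 to WT3), 4 heterozygotes (Gatad2b stop/+, Het1 to Het4) and 3 homozygotes (Gatad2b stop/stop, KO1 to KO3). The allele, Gatad2b tm1a(EUCOMM)Hmgu, carries a gene-trap cassette in the intron between the first coding exons and leaves the later exons in place, so that 3′ UMIs of Gatad2b need not vanish. All 3 groups shared the C57BL/6N-A tm1Brd background, and the sex of the embryos was not given.

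Cortical interneurons are born outside the cortex, in the ganglionic eminences, and migrate into it tangentially. In the medial ganglionic eminence (MGE), Nkx2-1 specifies the progenitors and switches on Lhx6, a LIM-homeodomain factor that the postmitotic somatostatin and parvalbumin lineages keep, while the related Lhx8 belongs mostly to cholinergic and other ventral neurons and the bZIP factor Maf acts later in the MGE lineage. The caudal ganglionic eminence (CGE) gives the Vip and Reelin lineages, in which the orphan nuclear receptors Nr2f1 and Nr2f2, the homeodomain factor Prox1 and the zinc-finger factor Sp8 are used. Npas1 is a bHLH-PAS factor of interneurons from both eminences. Gatad2b is a subunit of the NuRD chromatin remodelling and deacetylase complex.

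The 10 libraries held 5147 to 8103 kept cells and 82872641 to 123737385 UMIs each, with medians of 10795 to 17077.5 UMIs per cell. The barcode sequences were largely distinct, 496 of them occurring in 2 or more embryos. WT1 to WT3 and Het4 carried one library name prefix, and Het1 to Het3 and KO1 to KO3 another, so that no prefix held both WT and KO embryos. The only contrast of KO embryos within 1 prefix was against Het1 to Het3, and a fit with the prefix as a covariate tells it from the genotype only through the Het embryos, of which 1, Het4, has the prefix of WT. Levels are given in CPM, the UMIs of a gene scaled to a total of 1000000 in the same embryo and cells. Gatad2b itself, in all kept cells, was at 132 to 142 CPM in the WT embryos, 88.1 to 96.6 in Het and 49.5 to 58.2 in KO embryos, in the order of the labels and without overlap.

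The cells fell into 28 clusters, found without the 9 genes, and the classes were named from other markers and are therefore called "-like". The MGE interneuron-like class held 8559 cells in clusters 3, 14, 17 and 25, and the CGE interneuron-like class held the 2303 cells of cluster 10. Clusters 14 and 25 are the less certain of these. In cluster 14 the markers of the CGE class scored above those of the MGE class (1.858 against 1.468), and it carries the MGE name through Sst and Npy among its leading genes. The share of cluster 14 in the kept cells also ranged from 0.736% in Het1 to 3.89% in Het4, and the counts of members called in the MGE and interneuron-like cells are given with and without it. Cluster 25, with 303 cells, had a median of 22570 UMIs per cell against 7335 in cluster 3, and its nearest other class was layer II-IV (0.773 against 1.138 for MGE), and the part of doublets in it was not tested.

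The genes lie at chr12:56531958-56536908 (Nkx2-1), chr2:36081953-36105408 (Lhx6), chr3:154306294-154330659 (Lhx8), chr8:115682942-115707794 (Maf), chr7:70351944-70366735 (Nr2f2), chr1:190118035-190170714 (Prox1), chr12:118846329-118852576 (Sp8), chr7:16455721-16477728 (Npas1) and chr13:78188973-78199757 (Nr2f1) of GRCm38, Sp8 on the plus strand and the others on the minus strand. The 250 bases upstream of the first RefSeq start listed are shown, 5′ to 3′ on the gene's strand, for the 4 members that were called between KO and WT interneuron-like cells and for Prox1, whose antisense neighbour was called. Capitals mark CG dinucleotides, the sites of DNA methylation.
Lhx6: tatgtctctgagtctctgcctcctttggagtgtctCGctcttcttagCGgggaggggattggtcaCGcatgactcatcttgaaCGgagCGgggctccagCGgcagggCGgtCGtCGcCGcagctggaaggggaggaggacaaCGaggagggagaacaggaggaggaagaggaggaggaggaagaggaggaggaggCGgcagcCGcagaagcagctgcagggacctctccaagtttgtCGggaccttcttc
Npas1: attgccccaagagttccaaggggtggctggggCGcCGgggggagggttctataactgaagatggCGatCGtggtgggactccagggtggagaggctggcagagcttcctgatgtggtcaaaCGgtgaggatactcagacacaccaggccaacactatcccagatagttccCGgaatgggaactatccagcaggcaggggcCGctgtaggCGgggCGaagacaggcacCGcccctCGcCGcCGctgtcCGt
Nr2f1: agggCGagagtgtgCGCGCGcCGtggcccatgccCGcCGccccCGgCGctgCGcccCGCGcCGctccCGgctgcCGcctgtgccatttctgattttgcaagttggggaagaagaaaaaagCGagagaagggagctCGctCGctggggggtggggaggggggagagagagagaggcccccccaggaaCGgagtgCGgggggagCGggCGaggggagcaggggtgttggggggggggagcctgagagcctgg
Nr2f2: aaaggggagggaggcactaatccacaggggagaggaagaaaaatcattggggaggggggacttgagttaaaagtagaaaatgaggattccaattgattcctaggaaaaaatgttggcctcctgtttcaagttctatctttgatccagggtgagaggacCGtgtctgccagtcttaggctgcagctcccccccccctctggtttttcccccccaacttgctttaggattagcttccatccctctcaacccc
Prox1: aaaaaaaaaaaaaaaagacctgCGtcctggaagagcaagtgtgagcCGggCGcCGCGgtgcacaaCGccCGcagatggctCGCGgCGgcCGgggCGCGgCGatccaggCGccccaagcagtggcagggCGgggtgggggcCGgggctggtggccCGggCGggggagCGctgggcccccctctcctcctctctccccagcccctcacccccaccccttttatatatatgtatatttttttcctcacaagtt
On GRCm38.p6, all on the minus strand, these windows are chr2:36105409-36105658 (Lhx6), chr7:16476781-16477030 (Npas1), chr13:78198874-78199123 (Nr2f1), chr7:70366747-70366996 (Nr2f2) and chr1:190170828-190171077 (Prox1). CG occurred 14 times in the Lhx6 and Npas1 windows, 22 times at Nr2f1, 20 times at Prox1 and 1 time at Nr2f2, beside a median of 6 in 32851 such windows. At least as many were held by 29.4% of all windows for Lhx6 and Npas1, by 14.8% for Nr2f1, by 17.9% for Prox1 and by 92.1% for Nr2f2, so that the Nr2f2 window is CG-poor while the windows shown for the other 4 have more CG than most. RefSeq lists further starts for 3 of these genes, whose windows held 17 and 7 CG (Lhx6), 11 (Prox1) and 2 (Nr2f1), the last reached by 81.2% of all windows. Methylation was not measured. The windows shown for Prox1, Nr2f1 and Nr2f2 lie inside genes annotated on the opposite strand (Prox1os, A830082K12Rik and B130024G19Rik), 532, 857 and 1837 bases from the start of these genes, while the further windows of Prox1 and Nr2f1 lie wholly inside no annotated antisense gene.

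In WT embryos the 9 genes divided between the classes along the lines of their known lineages, and the levels below are descriptions, since the classes were made from the same cells. The MGE interneuron-like class held 266 to 324 CPM of Lhx6, far above the next class, the ganglionic eminence-like cells, with a median of 17.7. Lhx8 also had its top level in the MGE class, at 5.08 to 23.4, and most of it came from cluster 14, where the WT median was 39.0. The progenitor factor Nkx2-1 was at 15.9 to 29.8 in the MGE class and 7.86 to 26.6 in the ganglionic eminence-like cells, ranges that overlap. Maf was at 645 to 942 in the MGE class and at 542 to 722 in microglia-like cells, again overlapping. Maf is known in macrophages as well as in interneurons.

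The CGE interneuron-like class led for Prox1 (357 to 437 CPM in WT embryos), Sp8 (127 to 150.4) and Npas1 (163 to 198), each without overlap with the class below it. Nr2f2 was at 666 to 686 in the CGE class and higher, at 725 to 812, in the layer I-like cells, which include Cajal-Retzius neurons. Nr2f1 was at 673 to 707 in the CGE class, but at 516 to 574 in subventricular zone-like cells and at 350.1 to 361 in layer II-IV-like neurons, so that it is not an interneuron gene alone in this tissue. Prox1 was not limited to interneurons either, with a WT median of 489 in cluster 19, an unnamed cluster led by Ttr, Tac2 and Tesc, beside 384 in the CGE class, although WT1 was lower in cluster 19 (272 against 357).

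**Figure D1:**
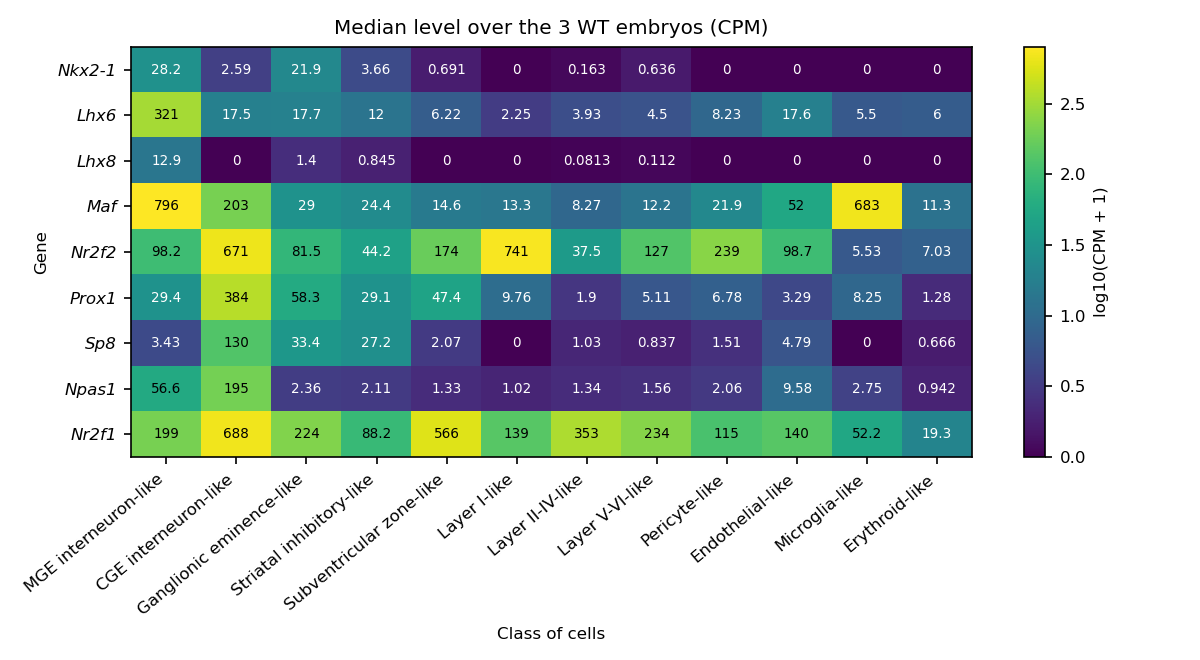
Median level over the 3 WT embryos of each of the 9 genes (rows) in the 12 marker-defined classes (columns), printed in CPM and shaded on a log10 (CPM + 1) scale. Lhx6 stands out in the MGE interneuron-like column alone, Prox1 and Sp8 in the CGE interneuron-like column, and Nr2f1 is spread over neurons and progenitors.

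Within the MGE class, Npas1 was uneven. It was at 177 to 179.5 CPM in the WT cells of cluster 17, an Sst-rich cluster, and at 19.9 to 28.0 in cluster 3, the bulk of the class, while Lhx6 was at 378 to 385 and at 403 to 428 in the same clusters. The level of Npas1 in the class as a whole therefore also depends on how many of its cells belong to cluster 17.

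Detection in single cells was compared after thinning each cell to 3000 UMIs, leaving out shallower cells, and is a share of cells with a UMI, not of cells that express the gene. In WT embryos a median of 57.5% of MGE interneuron-like cells had an Lhx6 UMI and 75.8% a Maf UMI, while Npas1 was found in 10.5%, Nkx2-1 in 4.65% and Lhx8 in 2.01%. In the CGE class the medians were 80.6% for Nr2f2, 76.4% for Nr2f1, 58.6% for Prox1, 31.7% for Npas1, 31.3% for Maf and 30.2% for Sp8. Lhx6 was found in 3.77% of CGE cells. As descriptions of pairs in WT MGE cells, Lhx6 and Maf were found together in 48.9% of cells beside 43.6% from the product of their shares, and Lhx6 and Nr2f2 together in 4.19% beside 7.49%.

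The genes most like each member across the 23 clusters with at least 200 WT cells, by Pearson's r of WT levels with no test, were Nxph2 (r = 0.967) and Rpp25 (0.921) for Lhx6, Gm15655 (0.959), an antisense neighbour that shares 2156 bases with Maf, Dgkg (0.937) and Erbb4 (0.921) for Maf, and Dgkg (0.904) and Erbb4 (0.882) for Npas1. For the others r with the top gene was 0.793 for Nkx2-1 (Sox2), 0.863 for Lhx8 (Otp), 0.871 for Sp8 (Crb1) and 0.820 for Nr2f2 (Pgf), and the top gene was again an antisense neighbour, with r of 0.925 between Prox1 and Prox1os and 0.913 between Nr2f1 and A830082K12Rik. Clusters share libraries and depth, and are not independent.

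In the interneuron-like cells (MGE and CGE classes summed per embryo), no member was called between Het and WT embryos, and 4 of the 9 were called between KO and WT. The MGE factor Lhx6 and the factor Npas1 fell, and the nuclear receptors Nr2f1 and Nr2f2 rose. Prox1, Sp8, Maf, Nkx2-1 and Lhx8 did not pass the test. A member was called at an adjusted p below 0.05 (edgeR quasi-likelihood test, Benjamini-Hochberg over all genes tested) together with a log2 fold change of more than 0.25 in either direction, and by the same rule 8.14% of the 12951 genes tested were called between KO and WT, and 0% between Het and WT. In the Het contrast 2 members, Nr2f1 and Nr2f2, had an unadjusted p below 0.05, as did 1750 of all genes. DESeq2 also called 0 members there. Gatad2b itself was not called in this contrast either (-0.46 ± 0.08, adjusted p = 0.15, edgeR), so that 0 calls do not show an absence of change. Between KO and WT DESeq2 called 5, these 4 and Sp8 (0.55, adjusted p = 0.041). The summed levels also depend on the mix of the MGE and CGE classes. KO1 had 564 MGE and 220 CGE cells against 1056 and 249 in WT1, while KO3 had 828 and 204 and WT3 1075 and 316.

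Lhx6 was at 271, 232 and 261 CPM in WT1 to WT3, at 272, 257, 253 and 209 in Het1 to Het4 and at 187, 205 and 201 in KO1 to KO3. All 3 KO embryos lay below every WT and every Het embryo, and the fall from WT was -0.35 ± 0.10 (log2, SE; adjusted p = 0.047, edgeR). Within 1 prefix, KO against Het1 to Het3, it was -0.42 ± 0.06 (adjusted p = 0.013), the only member called there, beside 0.616% of 12334 genes, and its adjusted p was 0.055 to 0.076 without Het2, KO1, KO2 or KO3. Between Het and WT the value was -0.01 ± 0.09.

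Npas1 was at 74.1, 72.9 and 85.7 CPM in WT, at 104, 73.8, 70.0 and 75.9 in Het1 to Het4 and at 58.4, 53.0 and 36.3 in KO embryos. The KO embryos again lay below all others, and KO3 was the lowest. The fold change was -0.64 ± 0.18 from WT (adjusted p = 0.047, edgeR) and -0.76 ± 0.19 from Het1 to Het3, where it did not pass (adjusted p = 0.13).

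Nr2f2 was at 145, 205 and 212 CPM in WT, at 209, 237, 281 and 237 in Het1 to Het4 and at 361, 256 and 295 in KO embryos. KO embryos were above all WT embryos but overlapped Het embryos, and WT1 was the lowest embryo of all. The rise from WT was 0.72 ± 0.15 (adjusted p = 0.013, edgeR), with 0.40 ± 0.14 between Het and WT (adjusted p = 0.27) and 0.31 ± 0.13 between KO and Het1 to Het3 (adjusted p = 0.47).

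Nr2f1 was at 265, 267 and 309 CPM in WT, at 354, 341, 340.2 and 304 in Het1 to Het4 and at 462, 327 and 407 in KO embryos. As with Nr2f2, KO embryos lay above WT embryos and overlapped Het embryos. The rise from WT was 0.53 ± 0.11 (adjusted p = 0.016, edgeR), with 0.29 ± 0.11 between Het and WT (adjusted p = 0.28) and 0.19 ± 0.11 between KO and Het1 to Het3 (adjusted p = 0.63).

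The other MGE factors overlapped between groups. Maf was at 817, 584 and 679 CPM in WT and at 840.3, 782 and 683 in KO embryos (log2 change 0.17 ± 0.17, adjusted p = 0.56, edgeR). Nkx2-1 was at 13.7, 24.8 and 23.9 in WT and at 16.3, 31.0 and 42.7 in KO embryos (0.55 ± 0.32, adjusted p = 0.30). Lhx8 was at 4.24, 20.2 and 10.3 in WT and at 0.983, 19.9 and 15.5 in KO embryos, and embryos with little of it, WT1, Het1 and KO1, were found in every group. The same 3 embryos had the lowest Nkx2-1 levels.

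Of the other CGE factors, Sp8 was at 23.8, 22.9 and 32.6 CPM in WT and at 48.8, 34.7 and 30.1 in KO embryos (0.54 ± 0.18, adjusted p = 0.083, edgeR), with KO3 inside the WT range. Prox1 was at 85.6, 73.4 and 111 in WT, 90.5, 95.0, 88.8 and 65.3 in Het1 to Het4, and 81.3, 91.0 and 84.2 in KO embryos (-0.05 ± 0.15, adjusted p = 0.86).

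**Figure D2:**
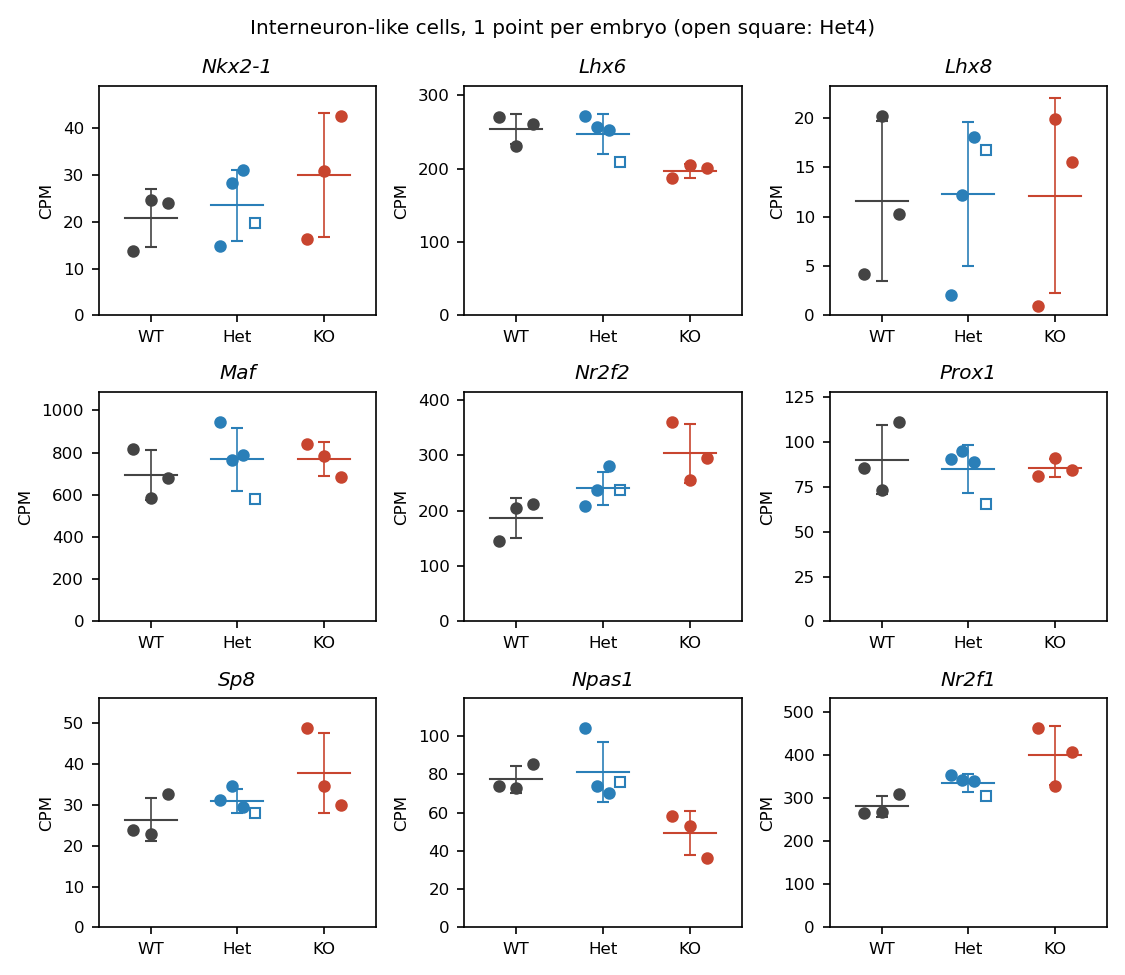
Level of each of the 9 genes in interneuron-like cells (vertical axes, CPM, own scale per panel) in WT, Het and KO embryos, with 1 point per embryo, the mean and SD of each group beside the points, and Het4, which shares its library prefix with WT, as an open square. For Lhx6 and Npas1 the 3 KO points lie below all WT and Het points, and for Nr2f1 and Nr2f2 they lie above the WT points.

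**Figure D3:**
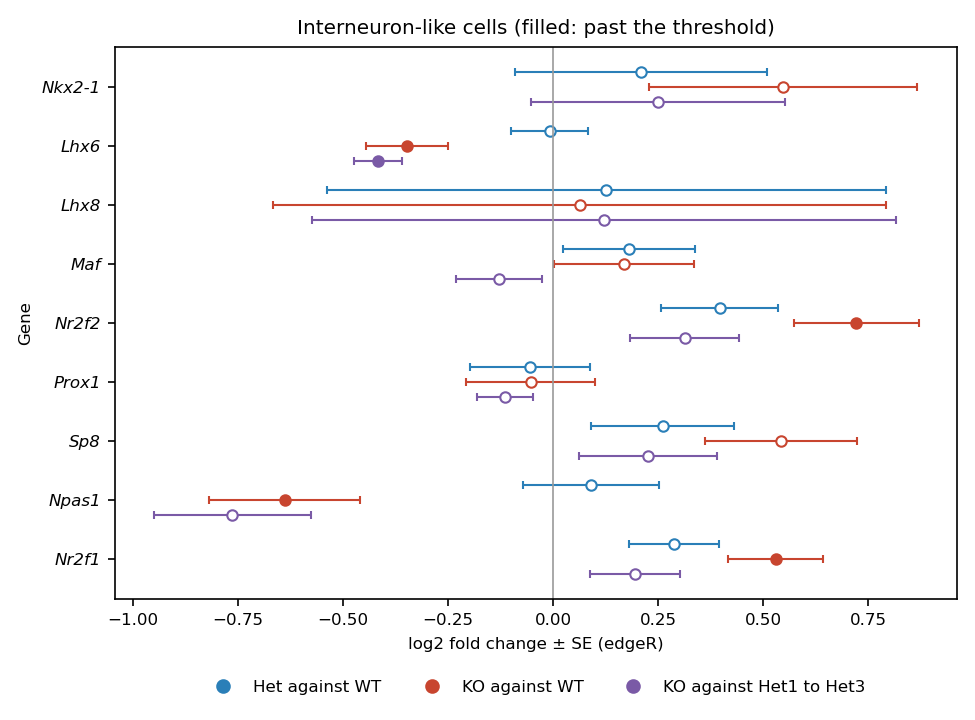
Log2 fold change (horizontal axis) with its SE for the 9 genes in interneuron-like cells in 3 contrasts, with filled symbols for changes that passed the test. KO against WT has 4 filled symbols (Lhx6, Npas1, Nr2f1, Nr2f2), KO against Het1 to Het3 has 1 (Lhx6), and Het against WT has 0.

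With the library prefix as a covariate none of the 4 changes passed (adjusted p of 0.082 for Lhx6, 0.63 for Npas1, 0.60 for Nr2f2 and 0.82 for Nr2f1, edgeR), although each kept its sign, with log2 changes of -0.69, -0.78, 0.67 and 0.32. The calls of Lhx6 and Npas1 also sat at the threshold. Leaving out WT1, WT3, Het2, Het3, KO1, KO2 or KO3 took Lhx6 to adjusted p values of 0.062 to 0.14, and leaving out WT1, WT2, WT3, Het2, Het3, KO2 or KO3 took Npas1 to 0.052 to 0.15. Without KO1, Nr2f2 was at 0.051 and Nr2f1 at 0.054. Without cluster 14 the same 4 members were called between KO and WT (log2 changes of -0.40 for Lhx6, -0.75 for Npas1, 0.65 for Nr2f2 and 0.50 for Nr2f1, adjusted p of 0.00075 to 0.0013), beside 17.2% of 12355 genes. Between Het and WT 0 members were called there by edgeR, 2 at an unadjusted p below 0.05, beside 1.01% of genes.

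In the MGE interneuron-like cells alone, Npas1 fell and Nr2f1 rose in KO embryos, 2 of 9 members beside 5.91% of 12682 genes. Npas1 was at 56.6, 53.3 and 57.4 CPM in WT, at 70.9, 50.9, 46.8 and 53.2 in Het1 to Het4 and at 25.7, 29.7 and 20.5 in KO embryos, where every KO embryo was well below every other embryo. The change was -1.13 ± 0.16 from WT (adjusted p = 0.0030, edgeR) and -1.17 ± 0.18 from Het1 to Het3 (adjusted p = 0.029). The contrast with Het1 to Het3 in single classes was added after seeing the data and was not repeated without each embryo. Nr2f1 was at 186, 199 and 209 in WT, 238, 233, 225 and 234 in Het1 to Het4, and 324, 211 and 282 in KO embryos. All Het and KO embryos lay above the WT embryos, and the KO change was 0.48 ± 0.12 (adjusted p = 0.036) against 0.21 ± 0.13 from Het1 to Het3 (adjusted p = 0.73). With the prefix as a covariate neither passed (adjusted p = 0.19 for Npas1 and 0.77 for Nr2f1). The call of Npas1 held without any 1 embryo, and that of Nr2f1 was lost without WT1, WT2, WT3, Het2, KO1 or KO3 (adjusted p of 0.054 to 0.11).

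Lhx6 in the MGE class was at 321, 266 and 324 CPM in WT, 346, 309.7, 302 and 247 in Het1 to Het4 and 245, 248 and 239 in KO embryos. The KO values were the most alike of any group, lay below all WT embryos and overlapped with Het4 alone among the Het embryos. The change was not called against WT (-0.30 ± 0.12, adjusted p = 0.14, edgeR) and was called against Het1 to Het3 (-0.41 ± 0.07, adjusted p = 0.044), where 0.483% of 11997 genes were called. Nr2f2 was at 39.2, 129 and 98.2 in WT and at 191, 118 and 148 in KO embryos, overlapping, with its widest spread in cluster 14 (29.2 to 242 in WT, 271 to 694 in KO embryos). Without cluster 14, MGE cells had 5 members called between KO and WT: Lhx6 at -0.33 ± 0.07, Npas1 at -1.37 ± 0.13, Nr2f2 at 0.64 ± 0.19, Nr2f1 at 0.43 ± 0.09 and Nkx2-1 at 0.84 ± 0.28 (adjusted p of 3.8e-06 to 0.045, edgeR). Calls over all genes were more frequent in that fit too, at 16.2% of 11955, and without clusters 14 and 25 the same 5 members were called. With all clusters, the other members of the MGE class were not called, with changes of 0.60 ± 0.31 for Nkx2-1, 0.73 ± 0.35 for Sp8, 0.11 ± 0.71 for Lhx8 and -0.07 ± 0.21 for Prox1 (adjusted p of 0.23 to 0.95).

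Cluster by cluster, the bulk of the MGE class (cluster 3, 5292 cells) had Lhx6 at 408, 403 and 428 CPM in WT, 383, 399, 384 and 352 in Het1 to Het4 and 300.4, 304 and 304 in KO embryos. The KO embryos lay close together and below every other embryo, with a fall of -0.43 ± 0.07 from WT (adjusted p = 0.00029, edgeR) and of -0.38 ± 0.07 from Het1 to Het3 (adjusted p = 0.0043). In the same cells Nr2f2 was at 28.9, 44.3 and 47.3 in WT, 37.6, 46.0, 53.5 and 69.4 in Het1 to Het4 and 90.1, 64.2 and 81.2 in KO embryos. It rose by 1.00 ± 0.17 from WT (adjusted p = 0.00059) and by 0.77 ± 0.12 from Het1 to Het3 (adjusted p = 0.0017). Nr2f1 rose from WT by 0.54 ± 0.10 and Npas1 fell by -1.08 ± 0.24. The background was 15.7% of 11028 genes against WT and 1.7% of 10501 against Het1 to Het3. The fits of single clusters were added after seeing the data and were not repeated without each embryo or with the prefix as a covariate.

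In cluster 17 Npas1 fell and Nr2f1 rose in KO embryos. Npas1 was at 177, 179.5 and 178 CPM in WT, at 236, 162, 138 and 182 in Het1 to Het4 and at 66.7, 119 and 77.0 in KO embryos, so that every KO embryo was below every other. The change was -1.10 ± 0.17 from WT (adjusted p = 0.00012, edgeR) and -1.08 ± 0.18 from Het1 to Het3 (adjusted p = 0.00063). Nr2f1 rose from 237, 224 and 231 in WT to 432, 400.3 and 394 in KO embryos (0.79 ± 0.09, adjusted p = 2.9e-06), and it also rose against Het1 to Het3 (0.51 ± 0.10, adjusted p = 0.0030). Of all genes, 6.37% of 9904 were called against WT and 1.46% of 8920 against Het1 to Het3. Lhx6 was at 385, 378 and 379 in WT and at 318, 379.7 and 344 in KO embryos, and was not called. Cluster 17 itself made up 2.02 to 2.64% of the kept cells in the WT group, 2.02 to 2.54% in the Het group and 1.19 to 1.85% in the KO group, and its part in the class-wide level of Npas1 was not tested beyond the fit in these cells alone and the fit without them, which gave -0.47 ± 0.26 (adjusted p = 0.32) in the MGE class.

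**Figure D4:**
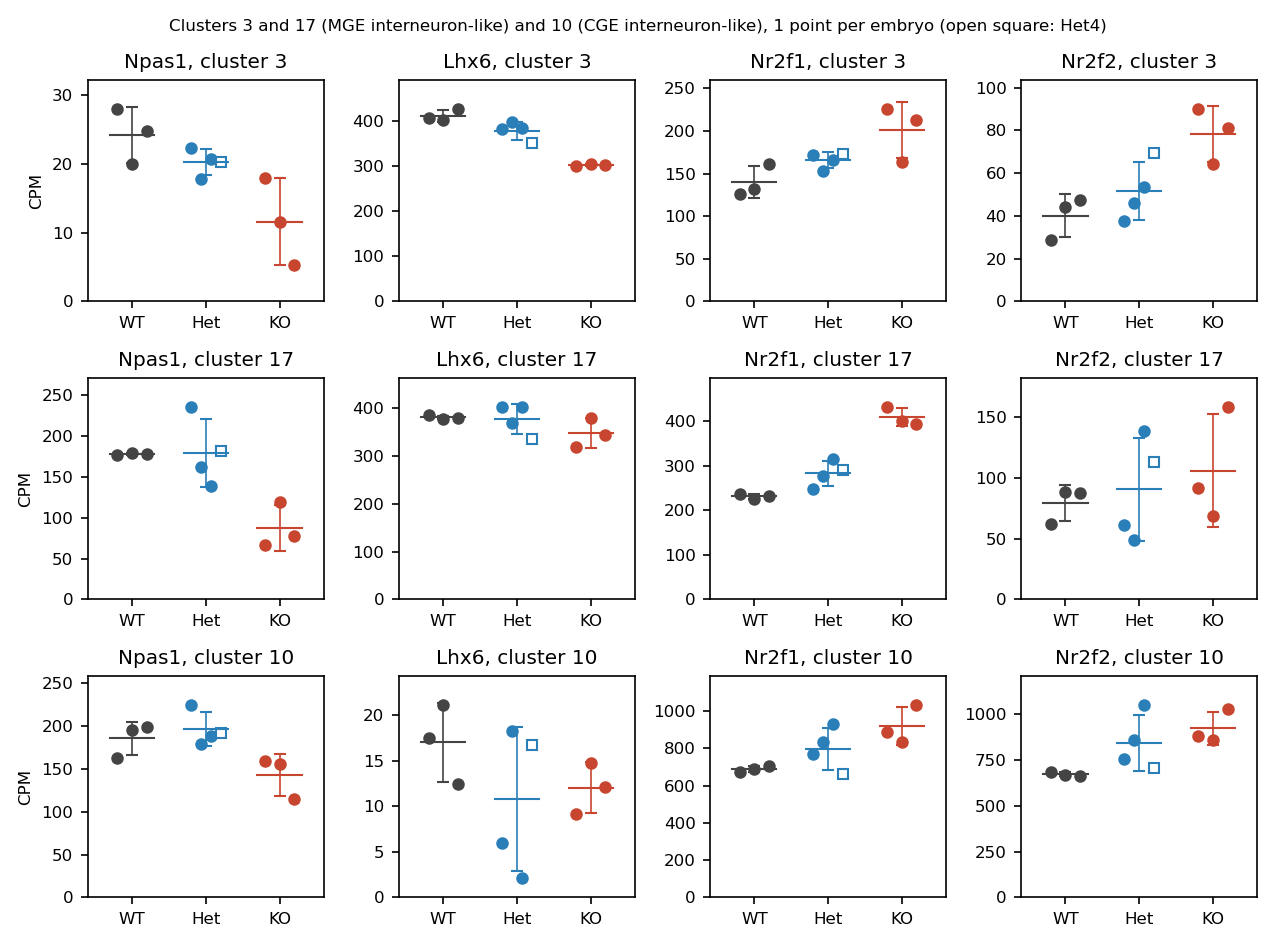
Levels of Npas1, Lhx6, Nr2f1 and Nr2f2 (CPM, own scale per panel) in clusters 3 and 17 of the MGE class and cluster 10, the CGE class, with 1 point per embryo and the mean and SD of each group. Lhx6 in cluster 3 is at 300.4 to 304 in the KO embryos and at 352 or more in all others, and Npas1 in cluster 17 is at 119 or less in the KO embryos and at 138 or more in all others.

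In the CGE interneuron-like cells, Nr2f2 and Nr2f1 rose in KO embryos, 2 of the 7 members tested (Nkx2-1 and Lhx8 had too few UMIs) beside 5.77% of 9793 genes. Nr2f2 was at 686, 671 and 666 CPM in WT, at 754, 859.8, 1051 and 706 in Het1 to Het4 and at 881, 861 and 1027 in KO embryos. The WT embryos were the most alike and the lowest, and Het4 was the Het embryo nearest to them. The change was 0.48 ± 0.10 from WT (adjusted p = 0.0061, edgeR) and 0.05 ± 0.09 from Het1 to Het3 (adjusted p = 0.94). Nr2f1 was at 673, 688 and 707 in WT, 771, 834, 929 and 661 in Het1 to Het4 and 888, 835 and 1033 in KO embryos, with 0.44 ± 0.10 from WT (adjusted p = 0.0071) and 0.12 ± 0.08 from Het1 to Het3 (adjusted p = 0.78). For both receptors Het1 to Het3, of the prefix of the KO embryos, lay above WT. Het4, of the prefix of the WT embryos, lay beside WT or below it. In these cells the levels of both receptors thus separated by prefix without overlap. By genotype the KO embryos lay above all WT embryos, but the Het embryos overlapped the KO embryos. With the prefix as a covariate the changes were 0.13 for Nr2f2 (adjusted p = 0.90) and 0.07 for Nr2f1 (adjusted p = 0.95). Without KO3 the adjusted p of Nr2f1 was 0.055.

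Within 1 prefix, Prox1 and Npas1 fell in the CGE class. Prox1 was at 357, 384 and 437 CPM in WT, 358, 434, 457 and 253 in Het1 to Het4 and 269.5, 363 and 352 in KO embryos, with Het4 the lowest of all. It fell by -0.36 ± 0.09 from Het1 to Het3 (adjusted p = 0.046, edgeR; 0.973% of 9247 genes were called) but was not called from WT (-0.24 ± 0.14, adjusted p = 0.34). Npas1 was at 163, 195 and 198 in WT, 224, 179, 189 and 192 in Het1 to Het4 and 159, 155 and 115 in KO embryos, with a fall of -0.46 ± 0.11 from Het1 to Het3 (adjusted p = 0.019) and a change of -0.35 ± 0.12 from WT (adjusted p = 0.076). Sp8, at 127, 130.2 and 150.4 in WT and 187, 140.5 and 153 in KO embryos, was not called (0.26 ± 0.12, adjusted p = 0.19).

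Maf took opposite signs in the classes. In the MGE class it was at 942, 645 and 796 CPM in WT and 1052, 927 and 795 in KO embryos (0.24 ± 0.19, adjusted p = 0.49, edgeR), and in the CGE class at 179.8, 203 and 214 in WT and 189, 146 and 122 in KO embryos (-0.35 ± 0.13, adjusted p = 0.10). Neither change passed the test, and both ranges overlap.

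In the sums over all kept cells, where fewer cells of a type and less RNA per cell cannot be told apart, 3 of the 9 members were called between KO and WT beside 24.5% of 17647 genes, and 0 between Het and WT beside 2.98% (1 member at an unadjusted p below 0.05, and 0 by DESeq2). Lhx6 was at 28.6, 29.3 and 32.7 CPM in WT, 21.6, 31.8, 26.3 and 26.1 in Het1 to Het4 and 13.8, 19.9 and 21.9 in KO embryos (-0.67 ± 0.15, adjusted p = 0.0063, edgeR). Npas1 was at 7.80, 9.33 and 11.1 in WT, 8.52, 9.11, 7.23 and 9.51 in Het1 to Het4 and 4.36, 5.19 and 3.89 in KO embryos (-1.03 ± 0.15, adjusted p = 0.00047), and it was the only member called against Het1 to Het3 (-0.89 ± 0.13, adjusted p = 0.0037, beside 6.14% of 17165 genes). Nr2f1 rose by 0.29 ± 0.09 (adjusted p = 0.030), a call that was lost without WT1, WT2, KO1 or KO3 (adjusted p of 0.056 to 0.12). Without KO1 its log2 change was 0.18. With the prefix as a covariate none of the 3 passed (adjusted p of 0.13 for Lhx6, 0.062 for Npas1 and 0.77 for Nr2f1), with log2 changes of -0.73 for Lhx6 and -0.86 for Npas1, near those without it, and of 0.09 for Nr2f1.

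The share of cells in the classes gives part of the setting of these sums. The MGE interneuron-like class made up 13.6 ± 0.472% of kept cells in WT (SD, n = 3), 13.3 ± 1.90% in Het (n = 4) and 11.7 ± 1.92% in KO embryos (n = 3), a difference of -0.320 percentage points between Het and WT (two-sided exact permutation p = 0.914) and of -1.88 between KO and WT (p = 0.2, 0.8 after adjustment over 4 tests, where 0.1 is the smallest p that 3 against 3 allows). The CGE class was at 3.44 ± 0.527% in WT, 3.56 ± 0.393% in Het and 3.48 ± 0.236% in KO embryos, differing by less than the spread between embryos (two-sided exact permutation p = 0.629 for Het and 0.9 for KO).

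Outside the interneuron-like classes, members were tested in the other classes too. Over 11 classes, the MGE and CGE classes included, 67 of the 99 pairs of a member and a class had enough UMIs. Of these, 4 were called between Het and WT (1 up, 3 down) and 18 between KO and WT (8 up, 10 down), beside 1.44% and 13.1% of all pairs of a gene and a class. The contrast of KO with Het1 to Het3 in single classes was added after seeing the data and was not repeated without each embryo. There 60 pairs could be tested, in libraries that share a prefix. Of these 5 were called, all of them down, beside 3.42% of all pairs of a gene and a class. They were Lhx6 and Npas1 in the MGE class, Prox1 and Npas1 in the CGE class and Lhx6 in layer II-IV-like neurons. All 4 Het calls were in layer II-IV-like neurons, where 6.41% of 14162 genes were called between Het and WT. In layer II-IV-like neurons Lhx6 was at 3.71, 3.93 and 4.35 CPM in WT, 1.49, 2.38, 1.98 and 2.64 in Het1 to Het4 and 0.839, 0.534 and 1.24 in KO embryos. The groups did not overlap, and the change was -0.88 ± 0.19 for Het (adjusted p = 0.013, edgeR) and -2.15 ± 0.24 for KO (adjusted p = 9.2e-06), with -1.14 ± 0.28 between KO and Het1 to Het3 (adjusted p = 0.011). Called genes made up 30.3% of 14162 between KO and WT and 12% of 13604 between KO and Het1 to Het3 in these neurons.

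Npas1 and Maf fell with Lhx6 in the layer II-IV-like neurons, in Het (-1.50 ± 0.25 and -0.76 ± 0.17) and in KO embryos (-1.59 ± 0.27 and -1.22 ± 0.19, adjusted p of 0.0026 and 0.014 for Het and of 0.00036 and 0.00018 for KO, edgeR). With the prefix as a covariate, the KO falls of Lhx6 (-1.71, adjusted p = 0.0053) and Maf (-1.57, adjusted p = 0.0035) passed and that of Npas1 did not (adjusted p = 0.14), and of the Het calls none passed (log2 changes of -0.57 for Lhx6, -1.23 for Npas1, -1.03 for Maf and 0.63 for Nr2f2, adjusted p of 0.058 to 0.38). In the Het contrast the call of Lhx6 was also lost without WT3 (adjusted p = 0.067) and that of Maf without WT2, WT3 or Het1 (0.051 to 0.069). The levels were small. As a percentage of the level in the interneuron-like cells of the same embryo, Lhx6 in these neurons was at 1.37 to 1.7% in the WT group, at 0.549 to 1.26% in the Het group and at 0.261 to 0.617% in the KO group. Maf was at 0.849 to 1.42%, 0.424 to 0.788% and 0.305 to 0.499% in the same order. Npas1 was at 1.72 to 1.93% in the WT group and was lower in the Het group (0.383 to 0.783%) than in the KO group (0.854 to 0.958%). Erythroid-like cells, which should lack Lhx6, held 2.03 to 3.42% of the interneuron-like level in the WT group, 0.176 to 3.11% in the Het group and 0 to 0.867% in the KO group. For Maf the erythroid-like share was 1.13 to 1.98%, 0.237 to 0.642% and 0 to 0.510% in that order, and for Npas1 the ranges overlapped (0 to 1.80%, 0 to 1.60% and 0 to 2.40%). In CPM, Lhx6 in erythroid-like cells ranged from 4.71 to 8.94 in WT and from 0 to 1.74 in KO embryos, and the Het range, 0.452 to 7.86, spanned much of both. Of 10 pan-GABAergic genes tested in the layer II-IV-like neurons (Dlx genes, Gad1, Gad2 and others), 9 fell in Het and 5 in KO embryos. Their median log2 changes were -0.79 and -0.64. Of 9 genes of the MGE programme 1 fell in Het embryos, and 2 rose and 3 fell in KO embryos (medians of -0.11 and -0.04). Of 7 genes of the CGE programme 3 fell in Het and 2 in KO embryos (medians of -0.69 and -0.72). The part of free RNA in these falls was not tested. In layer V-VI-like neurons Lhx6 (-1.02 ± 0.25), Npas1 (-1.34 ± 0.36), Maf (-0.66 ± 0.21) and Nkx2-1 (-1.38 ± 0.41) fell in KO embryos, beside 22.8% of 14841 genes called, with the last 3 calls lost without 1 or another of WT2, WT3, KO1, KO2 and KO3 (adjusted p of 0.051 to 0.11), and none passed with the prefix as a covariate (0.11 to 0.49). In subventricular zone-like cells Lhx6 fell from 11.1, 5.86 and 6.22 CPM in WT to 0.697, 2.67 and 3.87 in KO embryos (-1.64 ± 0.46, adjusted p = 0.018, edgeR; 16% of 11447 genes were called), a call lost without WT1 or KO1 (0.12 and 0.076) and with the prefix as a covariate (0.48).

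Between KO and WT, Nr2f2 or Nr2f1 was also called higher in 3 classes outside the interneurons, and neither was called there between KO and Het1 to Het3. Nr2f2 in layer II-IV-like neurons was at 27.8, 37.5 and 47.6 CPM in WT, 44.3, 59.2, 58.4 and 57.0 in Het1 to Het4 and 75.9, 46.9 and 67.6 in KO embryos, called in Het (0.58 ± 0.17, adjusted p = 0.044, edgeR) and in KO (0.80 ± 0.18, adjusted p = 0.0024), with KO2 inside the WT range. The Het call was lost without WT1, WT2, Het2, Het3 or KO3 (adjusted p of 0.063 to 0.16). In striatal inhibitory-like neurons it was at 46.5, 41.1 and 44.2 in WT and at 92.4, 44.5 and 93.3 in KO embryos (0.84 ± 0.18, adjusted p = 0.0044), so that KO2 did not share the rise of the other 2 KO embryos. In these striatal neurons 16.9% of 11906 genes were called, and 2 further members among them. Maf fell, from 24.4, 19.4 and 24.5 in WT to 15.8, 12.8 and 15.8 in KO embryos (-0.59 ± 0.15, adjusted p = 0.013), and passed with the prefix as a covariate (adjusted p = 0.034) but not without WT3 (0.058) or KO2 (0.074). Sp8 rose, from 27.2, 39.1 and 20.4 to 30.9, 60.6 and 39.3 (0.65 ± 0.22, adjusted p = 0.046), with ranges that overlap, and the call was lost with the prefix as a covariate (0.43) and without WT1, WT3, Het2, Het3, KO2 or KO3 (0.050 to 0.35). DESeq2 called 2 of the 9 members in these neurons. Nr2f1 rose in striatal inhibitory-like neurons by 0.51 ± 0.16 and in subventricular zone-like cells by 0.35 ± 0.10 (adjusted p = 0.016), calls that were lost without WT2, WT3, KO1 or KO3 (0.094 to 0.16) and without WT1 or KO1 (0.077 and 0.095). With the prefix as a covariate none of the KO rises of either receptor passed (adjusted p of 0.059 to 0.95). Between KO and Het1 to Het3 the changes of Nr2f2 were 0.24 ± 0.14 in layer II-IV-like neurons and 0.62 ± 0.19 in striatal inhibitory-like neurons (adjusted p of 0.28 and 0.18, edgeR). Those of Nr2f1 were 0.31 ± 0.15 in the striatal neurons and 0.16 ± 0.09 in subventricular zone-like cells (adjusted p of 0.50 and 0.47). Other pairs were not called between KO and WT. Nr2f1 changed by 0.08 ± 0.06 in layer II-IV-like neurons (adjusted p = 0.33, edgeR). In layer V-VI-like neurons the change was 0.61 ± 0.31 for Nr2f2 and 0.25 ± 0.12 for Nr2f1 (adjusted p of 0.15 and 0.12). In subventricular zone-like cells that of Nr2f2 was 0.48 ± 0.31 (adjusted p = 0.31). In the layer I-like cells, where Nr2f2 was highest, its change was 0.23 ± 0.08 (adjusted p = 0.086), and in microglia-like cells the change of Maf was 0.28 ± 0.22 (adjusted p = 0.51). The ganglionic eminence-like class is clusters 12 and 16, and cluster 16, led by Ube2c, Cenpf and Cdc20, had no marker of the class among its leading genes. Its median was 2086 to 2748 UMIs per cell in WT and 6620 to 11586.5 in KO embryos, so that depth differed between the groups. In ganglionic eminence-like cells all 9 members were tested and 0 were called in either contrast by edgeR or DESeq2. Of all 11675 genes there, 0.188% were called for Het and 9.02% for KO. At an unadjusted p below 0.05 there were 0 members in Het and 1 in KO embryos, Npas1 (-2.34 ± 0.81, adjusted p = 0.076).

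Several members share bases with genes on the opposite strand. The sources used here do not state whether counting used strand. If it did not, part of the UMIs of one gene can belong to its partner. Nr2f2 shares 1826 bases with B130024G19Rik, Maf 2156 with Gm15655, Nkx2-1 1566 with Gm26973 and Npas1 119 with n-R5s151, an rRNA gene. The values given for these members carry the same limit. Prox1os shares 419 bases with Prox1 and Gm28172 shares 964, and A830082K12Rik shares 1741 with Nr2f1. In the CGE class Prox1os was at 72.4, 85.1 and 93.0 CPM in WT, 70.6, 103, 101 and 61.6 in Het1 to Het4 and 48.6, 52.8 and 45.2 in KO embryos. Every KO embryo lay below every other embryo, with a fall from WT of -0.76 ± 0.17 (adjusted p = 0.0060, edgeR), a contrast in which Prox1 was not called. Against Het1 to Het3 Prox1 was itself called lower in these cells. In all cells Prox1os fell by -1.05 ± 0.20 (adjusted p = 0.0023) and against Het1 to Het3 by -0.95 ± 0.15 (adjusted p = 0.0057), while Prox1 changed by -0.34 ± 0.17 and -0.34 ± 0.09 and was not called. In the interneuron-like cells Prox1os fell by -0.68 ± 0.19 between KO and WT (adjusted p = 0.045). Its change against Het1 to Het3 there was -0.78 ± 0.17 and was not called (adjusted p = 0.077). In the MGE class its change between KO and WT was -1.27 ± 0.43 and was not called (adjusted p = 0.097).

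At the Nr2f1 locus the partners took opposite signs in all cells: A830082K12Rik fell by -0.25 ± 0.06 (adjusted p = 0.0062, edgeR) and Nr2f1 rose by 0.29 ± 0.09. The size of the first lies at the fold threshold. Against Het1 to Het3 neither was called (-0.18 ± 0.06 and 0.04 ± 0.09, adjusted p of 0.12 and 0.83), and with the prefix as a covariate the change of Nr2f1 was 0.09 (adjusted p = 0.77). In layer II-IV-like neurons the antisense gene fell by -0.46 ± 0.06 (adjusted p = 2.3e-05), and in the CGE class it changed by -0.03 (adjusted p = 0.94).

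**Figure D5:**
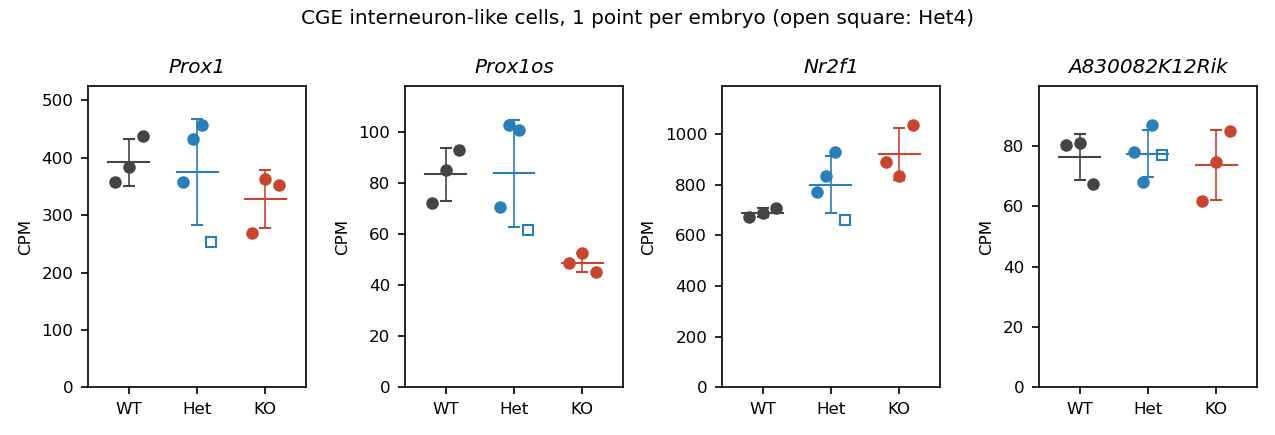
Levels of Prox1, Prox1os, Nr2f1 and A830082K12Rik in CGE interneuron-like cells (CPM, own scale per panel), with 1 point per embryo and the mean and SD of each group. The KO points of Prox1os, at 45.2 to 52.8, lie below all other embryos, while those of Prox1 overlap them.

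Other genes of the interneuron programme were read from lists of known genes in the interneuron-like cells, where the median log2 change of all genes tested between KO and WT was -0.01 and 8.14% of 12951 genes were called. Of 11 pan-GABAergic genes 2 rose, Gsx2, a progenitor homeobox gene (1.72 ± 0.34, adjusted p = 0.012, edgeR), and Dlx6 (0.53 ± 0.12, adjusted p = 0.021), and the list's median was 0.22. Of 10 genes of the MGE programme 1 rose, Sox6, a factor downstream of Lhx6 (0.43), and 2 fell, with a median of -0.17. Those that fell were Npy, a neuropeptide of the somatostatin lineage (-1.10 ± 0.25, adjusted p = 0.019, edgeR), and Lmo3 (-0.39). The lower level of Npy was not limited to interneuron-like cells. In layer II-IV-like neurons Npy was at 58.3, 86.9 and 63.8 CPM in WT and at 7.59, 1.93 and 3.60 in KO embryos. The part of free RNA in these values was not tested. Of 8 genes of the CGE programme 7 were tested and 4 rose (Cxcl14 by 0.98, Nr2e1 by 0.82, Sp9 by 0.71 and Npas3 by 0.41), with a median of 0.51. This list is not particular to CGE cells. Npas3 was among the leading genes of cluster 10, but Sp9 was among those of cluster 4, a striatal inhibitory-like cluster. At resolution 0.8 Cxcl14 was among those of an MGE-named cluster led by Sst. Of 13 relatives of the members 11 were tested and 2 rose, Sp9 and Npas3, which the CGE list holds too, with a median of -0.21. Between Het and WT, where edgeR called 0 genes in these cells, the medians of the lists were 0.10, -0.08, 0.27 and 0.05 in the same order. Between KO and Het1 to Het3 the calls were Npy (-1.03) and Sox6 (0.37), beside 0.616% of 12334 genes.

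Some genes of the CGE list rose within each class. In the MGE class Htr3a (1.00), Nr2e1 (0.93) and Sp9 (0.73) rose between KO and WT, and in the CGE class Sp9 (0.68) and Npas3 (0.40) rose while Adarb2, another CGE marker, fell (-0.55, adjusted p = 0.00012, edgeR). Genes of the MGE list also rose in the CGE class, Sox6 by 0.85 and Satb1 by 0.53. Called genes made up 5.91% of 12682 in the MGE class and 5.77% of 9793 in the CGE class. In Het embryos, where 0.337% of the 9793 genes were called in the CGE class, Sst rose there (2.25 ± 0.46, adjusted p = 0.020), from 18.1, 13.5 and 21.5 CPM in WT to 5.99, 65.7, 147 and 116 in Het1 to Het4, with Het1 below all WT embryos, and it was at 12, 7.76 and 25 in KO embryos. In erythroid-like cells, which should lack Sst, it was at 69.6 in Het3, the embryo with the highest CGE value, and at 2.28 to 15.3 in the other embryos, and the part of free RNA in the CGE values was not tested.

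After thinning to 3000 UMIs, cells with UMIs of Lhx6 and of Prox1 or Nr2f2 made up 5.01, 5.59 and 5.64% of the interneuron-like cells in WT. They made up 5.21, 5.55, 5.09 and 6.80% in Het1 to Het4 and 6.01, 5.36 and 7.43% in KO embryos, and 13.2 to 18.4% without thinning. In WT embryos the thinned share was 5.82 to 6.67% in the MGE class and 1.89 to 4.19% in the CGE class. Nr2f2 was also found in MGE cells, so that such a pair does not by itself show a mixed lineage. The differences from WT, 0.245 percentage points for Het and 0.85 for KO, were within the spread of the embryos (two-sided exact permutation p = 0.8 and 0.3, adjusted p = 0.8 and 0.6). In erythroid-like cells, also thinned to 3000 UMIs (median 11054 before thinning), 0 of 1283 cells had such a pair, which allows a share of up to 0.234%. This share sets no limit on stray pairs in interneuron-like cells. An erythroid-like cell needs stray UMIs of both genes, while an interneuron-like cell that expresses 1 of them needs only the other. The part of free RNA in the pairs was not tested. Doublets of an MGE and a CGE cell give such pairs too, and their part was not tested beyond removing marked cells.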

How the data were processed

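Dissociated cortex of 10 mouse embryos was profiled by 10x 3′ v3 single-cell RNA-seq. The authors counted UMIs per gene and barcode against mm10, and the counts were deposited as raw matrices of whole numbers, 1 per embryo, with no normalization. Cell Ranger 6.0.2 is named in the submitters' processing notes, while the study's methods name an earlier version, and the use of strand in counting is not given in the sources used here. From the deposited counts, 65779 of 80071 barcodes were kept (at least 1000 UMIs, at most 10% mitochondrial UMIs). Cells were integrated across embryos and clustered in Seurat 5.3.0 (30 components, 2000 variable genes without the 9 members, resolution 0.4), and clusters were named from lists that hold none of the members. Cells with the highest Scrublet scores (scanpy 1.11.5) were marked as possible doublets, at a share set beforehand to 0.8% per 1000 barcodes (4.80 to 8.31% per embryo). At the tool's own threshold the share was 0.0341 to 2.53%. Marked cells were kept, and were removed in an alternative. UMIs were summed per embryo and class (at least 20 cells in every embryo) and all genes passing filterByExpr were fitted with the edgeR 4.0.16 quasi-likelihood test after TMM scaling, over all 10 embryos, or over Het1 to Het3 and KO1 to KO3 for the contrast within 1 prefix. The fit was tested on simulated data with known fold changes. DESeq2 1.42.0, other filters, other clusterings, the library prefix as a covariate and leaving out each embryo were alternatives. Fits of single clusters, fits without clusters and the contrast of KO with Het1 to Het3 in single classes were added after seeing the data. Shares were compared by exact permutation tests. Levels (CPM) were not compared between genes. All 9 members were read in every comparison, those called are named, from each further list at most 4 called genes are named in any 1 comparison, and the members and lists were chosen with earlier results of these data known. Promoter windows are from RefSeq tables of GRCm38.p6, in which 8 of the 9 members had an entry. Counts that allow an upper limit for 0 cover counting error only.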

Additional observations from a re-analysis of the deposited data

Results flagged for a closer look

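Of 39 values tested over the 4 Het embryos, 4 had 1 embryo far from the other 3 by Dixon's test, where chance gives about 1 in 20. Prox1 in all cells was at 30.8 CPM in Het2 and at 25.5 to 26.3 in the other Het embryos. Sp8 in all cells was at 6.37 in Het1 and at 9.14 to 9.70 in the others. Npas1 in interneuron-like cells was at 104 in Het1 and at 70.0 to 75.9 in the others. The CGE interneuron-like class made up 4.15% of the cells of Het2 and 3.28 to 3.42% in the others. Maf differed in sign between the interneuron-like classes, with a ratio of the KO to the WT mean of 1.16 in the MGE class and 0.766 in the CGE class. In the MGE class KO1 and KO2 were above the WT mean (1052 and 927 CPM), while KO3, at 795, lay below WT1 and WT3 (942 and 796). In the CGE class every KO embryo was below the WT mean. The difference of 0.60 on the log2 scale was not itself tested. Prox1 was at 441 CPM over the pooled WT cells in cluster 19, an unnamed cluster outside the comparisons, above the 396 of cluster 10, the next. By embryo it was higher in cluster 19 in WT2 (489 against 384) and WT3 (535 against 437) and lower in WT1 (272 against 357).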

How the results depend on the processing

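Counts of called members moved with the library prefix, which WT and KO embryos do not share. With it as a covariate the calls between KO and WT went from 3 to 0 in all cells, from 4 to 0 in interneuron-like cells and from 18 to 4 over the 11 classes, and between Het and WT from 4 to 0 over the 11 classes. Without a filter on low counts the calls were 4 and 3 between KO and Het1 to Het3 in all and in interneuron-like cells (1 in each as reported), and 18 (Het) and 34 (KO) over the 11 classes. Between KO and Het1 to Het3 in all cells, DESeq2 gave 3 and removing marked doublets 2, and in interneuron-like cells resolution 0.8 gave 2 and no integration 0. Between KO and WT in interneuron-like cells, no integration and leaving out cluster 17 each gave 2, and at most 5% mitochondrial UMIs gave 9 over the 11 classes. Deviations of same-numbered embryos from their group means correlated at -0.635 to 0.134 in all cells (2 of 9 over 0.1). In interneuron-like cells they correlated at -0.465 to 0.542 (5 of 9 over 0.1, with 4 of 10 embryos closest to their own number). These values cannot decide whether the replicate numbers pair the embryos, since each group mean rests on few embryos. A block on the number gave 1 (Het) and 4 (KO) calls in all cells and 0 and 5 in interneuron-like cells. It gave 10 and 24 over the 11 classes, and 4 and 2 between KO and Het1 to Het3. Leaving out 1 embryo gave 0 to 0 (Het), 2 to 4 (KO) and 1 to 3 (KO against Het) in all cells, 0 to 0, 1 to 4 and 0 to 1 in interneuron-like cells, and 2 to 7 and 12 to 20 over the 11 classes. Over all these repeats, single called members of the all-cell and interneuron-like fits changed sign 0 times, kept their call 137 times and lost it 37 times. Differences in share, none past its test, changed sign: for the MGE class in Het embryos 0.594 (at least 3000 UMIs), 0.844 (at most 5% mitochondrial) and 0.0339 (without cluster 14), for the CGE class in KO embryos -0.0127 (doublets removed) and -0.0503 (no integration), and for Lhx6 with Prox1 or Nr2f2 in Het embryos -0.0149 (doublets removed), -0.198 (at most 5% mitochondrial), -0.217 (2000 UMIs) and -0.258 (no thinning) and in KO embryos -0.114 (2000 UMIs). Without 1 embryo these differences ran from -0.893 to 0.406 (MGE, Het), -2.74 to -0.845 (MGE, KO), -0.0738 to 0.422 (CGE, Het), -0.145 to 0.342 (CGE, KO), -0.136 to 0.437 (pairs, Het) and 0.269 to 1.3 (pairs, KO). The causes were not tested.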
